A study of Mus musculus with 48 samples.

Results

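The genes described here are 9 genes of astrocyte homeostasis and endfeet, *Aqp4*, *Kcnj10*, *Slc1a2*, *Slc1a3*, *Glul*, *Gja1*, *Gjb6*, *Aldh1l1* and *Slc4a4*. They were chosen by name and not by a rule on their measured values, but with earlier results of these data known. The paper had used *Aqp4*, *Slc1a3* and *Aldh1l1* as astrocyte markers in the same libraries. All 9 were found among the 24973 genes of the deposited table. The study profiled 4 cell types of the neurovascular unit, sorted from the brains of mice with an ischemic stroke: astrocytes (AC), microglia (MG), and the endothelial cells (EC) and pericytes (PC) of the vessels. Male wild-type C57BL/6 mice aged 12 to 15 weeks underwent transient middle cerebral artery occlusion (tMCAO) for 1 h, followed by 23 h of reperfusion. The ischemic hemisphere is called ipsilateral, and the control was the contralateral hemisphere of the same animals, not a hemisphere of sham-operated mice. Each of the 8 groups had 6 replicates, and each replicate was a pool of 3 to 4 mice. Libraries with the same replicate number were taken to come from the same mice, which the sample labels do not state. All groups carried the same genotype, and mice entered the study only with a high neurological severity score. AC were sorted by a high signal of the surface antigen ACSA2, which is encoded by *Atp1b2*, in cells without CD45, NG2, PDGFRβ and VE-cadherin. EC and PC were sorted from cells that lacked CD45 and ACSA2, and MG by low CD45 with CD11b.

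Astrocytes clear glutamate and potassium from the space around synapses and turn the glutamate into glutamine. Potassium and water pass through them towards the vessels that their endfeet enclose. The genes fall into groups by these tasks: transporters and the enzyme that take up and convert glutamate, channels and a transporter that move water, potassium and bicarbonate, connexins that join astrocytes into a network, and an enzyme of folate metabolism that is widely used as an astrocyte marker. Loss of water and potassium channels from endfeet and loss of glutamate uptake are well-known features of injured astrocytes.

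Values are normalized counts, that is reads counted on a gene and divided by the authors' size factor of the library. They summed to between 10549900 and 16942165 per library, and from the spacing of low values the libraries held an estimated 4950000 to 17080000 reads on genes. The limit of 3 reads, taken as a floor, corresponded to 2.01 to 7.08 normalized counts and covers counting error only. For 12 ipsilateral PC and MG libraries the sample titles and the column names state opposite cell types. The column names were used, with which the 4 PC markers summed to 34058 to 90625 in ipsilateral PC and to 102 to 1865 in ipsilateral MG. In AC, *Gfap*, an astrocyte marker outside the 9 genes, was at 2213 to 28937, against at most 327 in any library of the other cell types. AC libraries also held RNA of other cells: 8 markers of the oligodendrocyte lineage, which include *Mbp*, summed to 0.334% to 2.51% of contralateral and 0.612% to 3.47% of ipsilateral AC libraries, and none of the 8 was at 0 in all libraries of either group. *Atp1b2*, the gene of the sorting antigen, was at 32868 ± 12914 (SD, n = 6) in contralateral AC and at 9717 ± 4118 in contralateral PC.

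All 9 genes were higher in AC than in each other cell type. Of the 54 comparisons, over 9 genes, 3 other cell types and 2 hemispheres, 54 were higher in AC by limma in all 48 libraries, with a largest Benjamini-Hochberg adjusted p of 0.00086. Among all genes tested, 32.3%, 29.6% and 31.8% were higher in AC than in contralateral EC, PC and MG, and 29.5%, 27.4% and 34.0% than in the ipsilateral ones. The differences ran from 1.14 on the log2 scale for *Glul* against contralateral EC to 10.52 for *Gjb6* against contralateral EC. For 8 of the 9 genes the lowest of the 12 AC libraries was above the highest of the 36 others. The exception was *Glul*, which had 12189 normalized counts in its lowest AC library and 13534 in its highest EC library. The share of all genes separated in this way is not given here, so the count has no comparison. The 9 genes together made up 1.35% to 2.02% of the counts of contralateral AC libraries and 0.893% to 2.09% of ipsilateral ones.

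**Figure D1:**
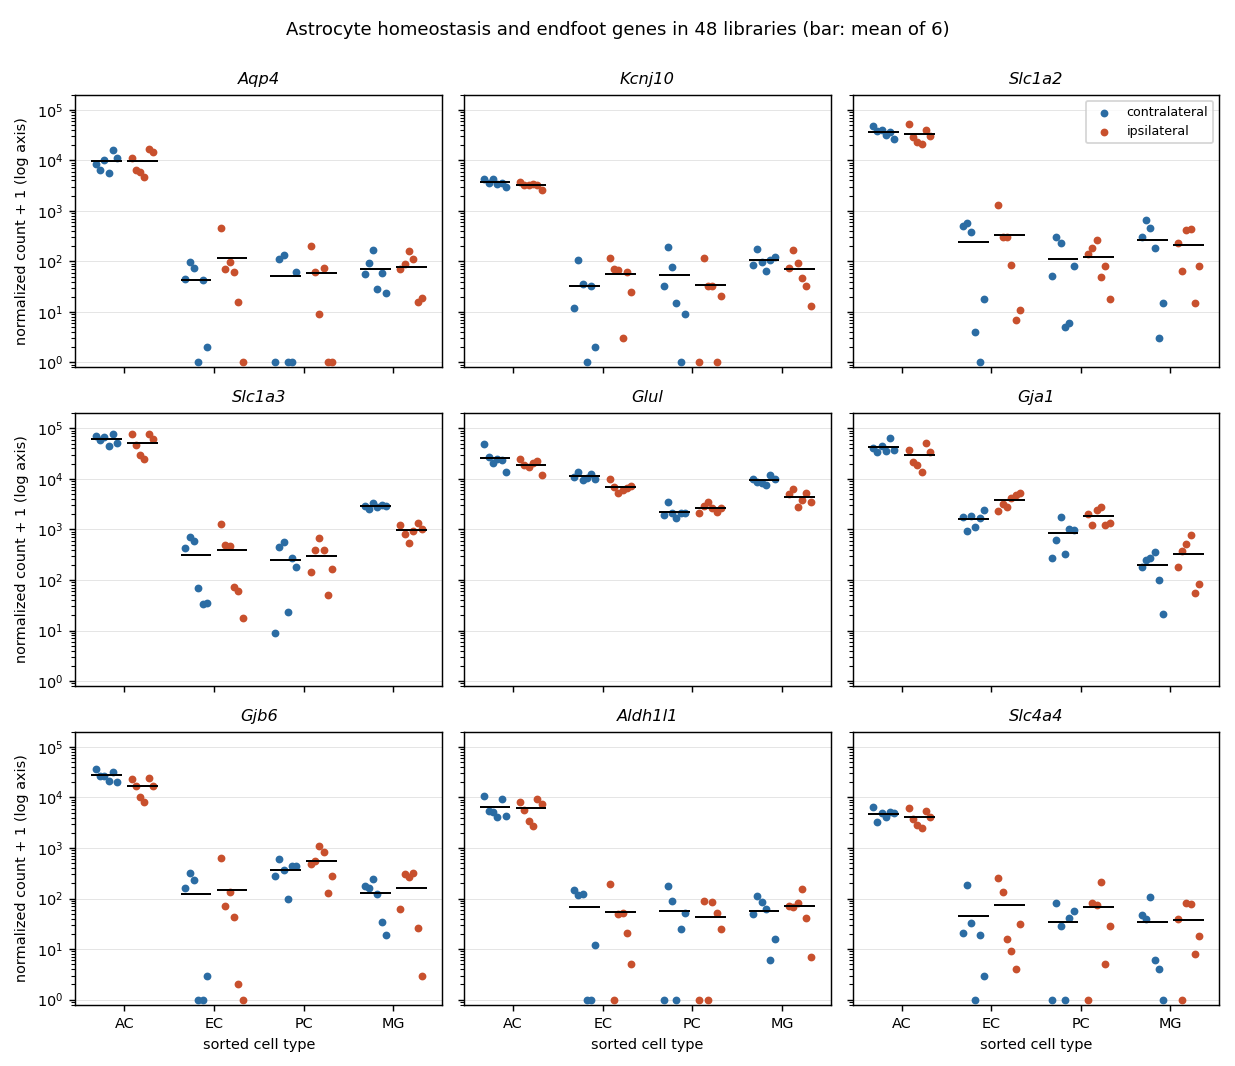
Normalized counts plus 1 (log axis) of the 9 genes in 48 libraries, by sorted cell type, with contralateral libraries in blue, ipsilateral ones in orange and a bar at the mean of 6. Every gene is highest in AC, *Glul* is at 1694 counts or more in every library, and in MG the *Slc1a3* libraries of the 2 hemispheres do not overlap.

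Levels can be compared between genes only per length, and per kilobase of exons the order in contralateral AC began with a connexin. *Gjb6*, which encodes connexin 30, was at 10213 ± 2334 normalized counts per kilobase (SD, n = 6). *Glul*, which encodes the glutamine synthetase that turns glutamate into glutamine, was at 7927 ± 3526 per kilobase. *Slc1a3*, the gene of the glutamate transporter GLAST, was at 7258 ± 1458 per kilobase. Neighbours in this order were not separated: *Gjb6* was above *Glul* in 5 of 6 libraries (exact sign-flip permutation test, two-sided, p = 0.0938) and *Glul* above *Slc1a3* in 3 of 6 (exact p = 0.719). *Gjb6* was above *Slc1a3* in 6 of 6 (exact p = 0.0312).

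*Gja1*, which encodes connexin 43, followed at 4158 ± 1065 normalized counts per kilobase. The second glutamate transporter, *Slc1a2* (GLT-1), was at 2795 ± 550 per kilobase. *Aqp4*, the water channel of endfeet, was at 1544 ± 585, and *Aldh1l1*, the folate enzyme and astrocyte marker, at 1434 ± 625, and each was above the other in 3 of 6 libraries (exact p = 0.75). The lowest levels per kilobase were those of *Kcnj10*, the inwardly rectifying potassium channel Kir4.1, at 675 ± 92.2, and of *Slc4a4*, a sodium bicarbonate cotransporter, at 443 ± 99.7. Each of the other 5 steps in this order held in 6 of 6 libraries (exact p = 0.0312, the smallest that 6 libraries allow).

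Outside AC, the genes differed in how far they lay below the AC level. In contralateral EC, PC and MG, *Aqp4*, *Slc1a2*, *Aldh1l1* and *Slc4a4* averaged between 0.305% and 1.02% of their contralateral AC mean. Each of them was at 0 in at least 1 of these libraries, and in contralateral EC replicates 4 to 6 *Slc1a2* was at 3, 0 and 17 normalized counts against 379 to 585 in replicates 1 to 3. *Glul* stood apart, with a mean of 42.5% of the AC level in EC, 35.8% in MG and 8.49% in PC. Its contralateral ranges overlapped between AC and EC and between EC and MG, whereas every PC library, at 1694 to 3522, lay below every MG library, at 7592 to 12041.

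*Slc1a3* was at 4.68% of the AC level in contralateral MG, and at 0.498% in EC and 0.398% in PC. Its 6 contralateral MG libraries lay at 2500 to 3285 normalized counts, all above the EC libraries, at 33 to 703, and PC libraries, at 8 to 560. *Gja1* was at 3.81% of the AC level in contralateral EC and 1.96% in PC, but 0.458% in MG, and the EC and PC ranges overlapped. *Kcnj10* was at 2.93% in MG against 0.849% in EC and 1.47% in PC, with overlapping ranges. *Gjb6* was at 1.37% in PC against 0.437% in EC and 0.461% in MG, also with overlapping ranges.

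**Figure D2:**
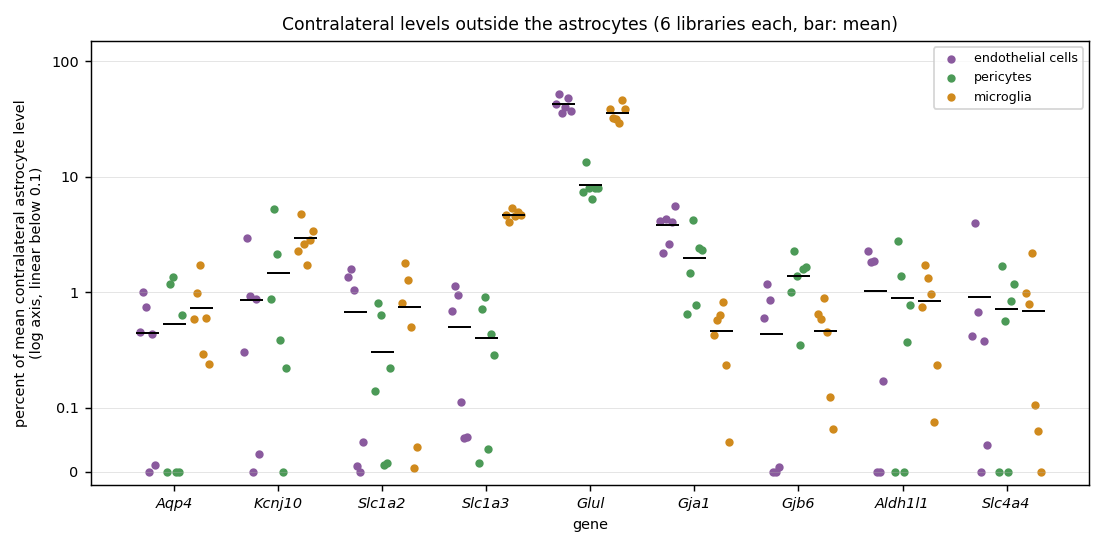
Contralateral levels of the 9 genes in EC, PC and MG as a percent of the mean contralateral AC level (log axis, linear below 0.1), with 6 libraries per cell type and a bar at their mean. *Glul* in EC and MG averages 42.5% and 35.8%, *Slc1a3* in MG 4.68% and *Gja1* in EC 3.81%, while most other means lie near or below 1%.

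In AC, the question was whether the genes changed in the ischemic hemisphere. A gene was called regulated with a limma adjusted p of at most 0.05, a change of at least 1.5-fold and, in 1 hemisphere or both, values above 10 normalized counts throughout the 6 replicates. By limma, 0 of the 9 genes were called in AC, where 0.341% of all 15264 genes tested were called. Of the 9, 1 (*Gjb6*) had an unadjusted p under 0.05, as did 1416 of all genes tested. All 9 fitted changes were below 0, or 8 of 9 after rescaling within AC, with a median of -0.25 against -0.06 over all genes tested, of which 55.6% were below 0. In bulk libraries, less RNA per cell and fewer expressing cells in the sorted fraction cannot be told apart.

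The connexins had the largest differences in AC. *Gjb6* ranged from 20669 through a median of 26520 to 37296 normalized counts in contralateral AC and from 8043 through 16938 to 24788 in ipsilateral AC. The ranges overlapped, but the ipsilateral library was the lower in 6 of 6 pairs. The fitted log2 difference was -0.79 ± 0.29 (SE; limma adjusted p = 0.435). With the replicate number as a block the adjusted p was 0.096, and without replicate 3 and without replicate 4 the log2 difference was -0.67 and -0.66. *Gja1* ranged from 34224 through 38864 to 63432 in contralateral AC and from 13761 through 27640 to 50144 in ipsilateral AC, and again the ipsilateral library was the lower in 6 of 6 pairs (log2 difference -0.66 ± 0.32, limma adjusted p = 0.562).

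Of the genes of glutamate handling, *Glul* was lower in 6 of 6 ipsilateral AC libraries than in their partners, with medians of 24496 and 19852 normalized counts and a log2 difference of -0.38 ± 0.29. Its highest contralateral library, replicate 1 at 48064, lay above the other 5, at 13381 to 27446. *Slc1a3* was lower in 4 of 6 pairs (-0.34 ± 0.33) and *Slc1a2* in 3 of 6 (-0.20 ± 0.27), with ranges that overlapped. For none of these did the limma adjusted p fall below 0.745.

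Of the channels and ion transporters, *Kcnj10* varied least. It ranged from 3024 to 4297 normalized counts in contralateral AC and from 2610 to 3645 in ipsilateral AC, a coefficient of variation of 13.7% and 10.6%. Its log2 difference was -0.18 ± 0.14, with lower ipsilateral values in 5 of 6 pairs (limma adjusted p = 0.762). *Aqp4*, at 5623 to 15696 and 4582 to 16784, was lower in 3 of 6 pairs and had a log2 difference of -0.05 ± 0.35, which was 0.00 after rescaling within AC and 0.10 without replicate 3. *Slc4a4* was lower in 4 of 6 pairs (-0.25 ± 0.24) and *Aldh1l1* in 3 of 6 (-0.10 ± 0.34). The standard errors leave room for changes of the size of the 1.5-fold limit, 0.585 on the log2 scale, in either direction for *Aqp4* and *Aldh1l1*.

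**Figure D3:**
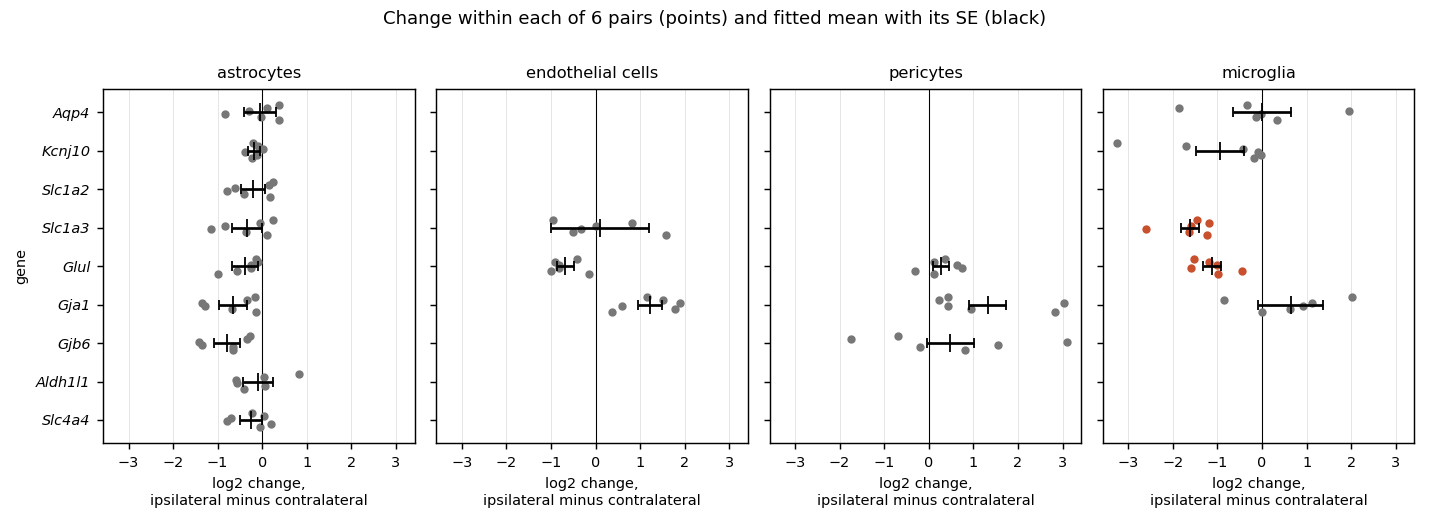
Log2 change, ipsilateral minus contralateral, within each of 6 pairs (points) and the fitted mean with its SE (black) for the 9 genes in AC and, in the other cell types, for those above 10 normalized counts in all 12 libraries. Points in orange mark the 2 genes called regulated, *Slc1a3* and *Glul* in MG, and in AC the points of *Gjb6*, *Gja1* and *Glul* all lie below 0.

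The differences in AC were largest in 2 of the replicates. The median log2 difference over the 9 genes was -0.79 in replicate 3, with 9 of 9 lower, and -0.61 in replicate 4, with 8 of 9 lower. It was -0.37 in replicate 2 and between -0.13 and -0.06 in replicates 1, 5 and 6. The 9 genes summed to 222974 normalized counts contralaterally and 114588 ipsilaterally in replicate 3, to 176020 and 102195 in replicate 4, and to 172788 and 183641 in replicate 6.

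Markers of other cells also differed between the AC libraries. The oligodendrocyte lineage markers were highest in the AC libraries of replicate 4, at 326627 contralaterally and 397051 ipsilaterally, went from 225139 to 270481 in replicate 3, and were lowest in replicate 6, at 37991 and 71124. Their sums were lower ipsilaterally in replicates 1, 2 and 5 and higher in replicates 3, 4 and 6. Over all 6 replicates their sums were 37991 to 326627 contralaterally and 71124 to 397051 ipsilaterally. The 4 neutrophil markers summed to 3115, 4551 and 1433 in ipsilateral AC replicates 2, 3 and 4 and to 148 to 310 in replicates 1, 5 and 6, against 3 to 722 contralaterally. The 10 neuron markers reached 7745 in ipsilateral replicate 4, and their sums were 1071 to 5346 contralaterally and 1232 to 7745 ipsilaterally. MG markers, at 611 to 13973 and 368 to 10617, and PC markers, at 1538 to 6319 and 744 to 3622, overlapped between the hemispheres. The part of this other RNA in the lower values of the 9 genes was not tested. *Gfap* went the other way: its ipsilateral library was the higher in 6 of 6 pairs, with medians of 3823 and 10631. Its ranges overlapped, at 2213 to 17352 contralaterally and 8805 to 28937 ipsilaterally. The log2 difference was 1.43 ± 0.50 (limma adjusted p = 0.402, and 0.194 to 0.877 with a replicate left out). The limma adjusted p was 0.0604 with the replicate block, 0.0114 with the replicate as a fixed term, and 0.0147 in replicates 1 to 4 alone. Replicates 5 and 6 had the highest contralateral values, 11055 and 17352.

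**Figure D4:**
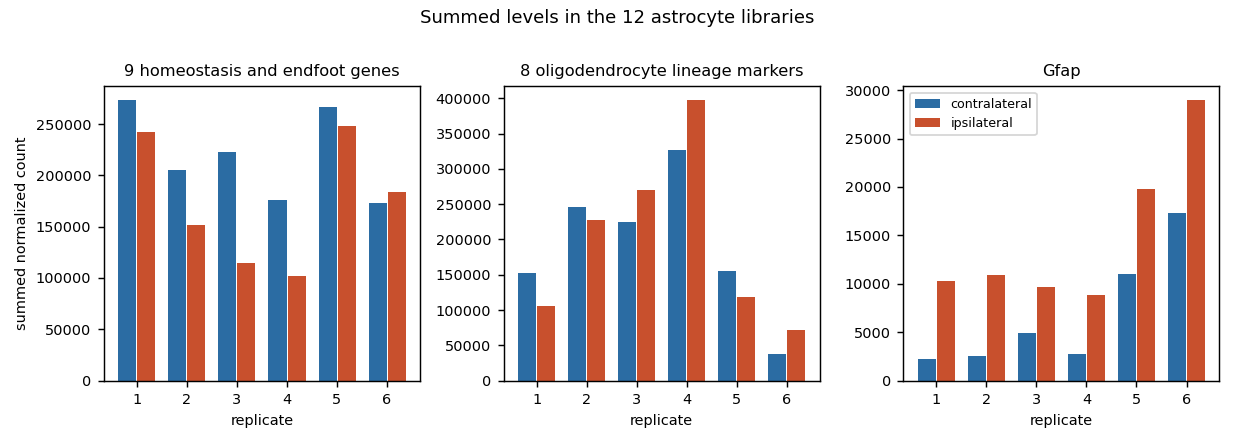
Summed normalized counts in the 12 AC libraries by replicate for the 9 genes, for 8 oligodendrocyte lineage markers and for *Gfap*, contralateral in blue and ipsilateral in orange. The 9 genes are lowest in ipsilateral replicates 3 and 4, where the oligodendrocyte markers are highest among the ipsilateral libraries, and *Gfap* is higher ipsilaterally in every pair.

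In MG, 2 of the 9 genes were called, both lower in the ischemic hemisphere, where 10.6% of all 13300 genes tested were called and 6.27% were called lower. *Slc1a3*, the glutamate transporter gene, ranged from 2500 through a median of 2868 to 3285 normalized counts in contralateral MG and from 537 through 986 to 1347 in ipsilateral MG. The ranges did not overlap, and all 6 pairs went the same way. The gene fell by 1.62 on the log2 scale (SE 0.20, limma adjusted p = 0.00024), a 3.08-fold lower level, and was 4th by p among the 834 genes called lower in MG. In the fit of all 48 libraries, in which cell types share 1 estimate of the spread, its adjusted p was 0.231 with an SE of 0.83.

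*Glul*, the glutamine synthetase gene, ranged from 7592 through 9292 to 12041 in contralateral MG and from 2743 through 4419 to 6205 in ipsilateral MG. These ranges did not overlap either, and *Glul* was lower in 6 of 6 pairs. It fell by 1.13 on the log2 scale (SE 0.20, limma adjusted p = 0.00323), a 2.19-fold lower level. Leaving out each replicate in turn gave adjusted p of 0.00051 to 0.00385 for *Slc1a3* and of 0.00123 to 0.0212 for *Glul*. In replicates 1 to 4 alone these were 0.00518 and 0.0472.

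In MG replicates 5 and 6 several of the other genes were low. In contralateral MG replicates 5 and 6, *Slc1a2* was at 2 and 14, *Gjb6* at 34 and 18 and *Aldh1l1* at 0.0772% to 0.232% of its AC level, while *Kcnj10* was at 104 and 123 and *Slc1a3* at 3082 and 2877. In ipsilateral MG replicates 5 and 6, *Slc1a3* was at 1347 and 1042 and *Slc1a2* at 14 and 80. Over the 6 ipsilateral MG libraries *Slc1a3* averaged 1.87% of its ipsilateral AC level, against 0.632% to 2.18% for the other genes except *Glul*, at 23.0%. *Kcnj10* was lower in 6 of 6 MG pairs but at 63 to 174 against 12 to 170 normalized counts (log2 difference -0.95 ± 0.54, limma adjusted p = 0.266).

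The sum of the MG markers moved in the same direction as *Slc1a3* and *Glul*, but not every marker did. The 4 MG markers summed to 180699 to 227678 in contralateral MG and to 91419 to 163197 in ipsilateral MG, without overlap. Of them 2, *Tmem119* and *Csf1r*, were called lower, with log2 differences of -1.6 and -1.1. *Aif1* was lower but not called (-0.47 ± 0.28, limma adjusted p = 0.292). *Cd68* went the other way and was not called (0.41 ± 0.25, limma adjusted p = 0.297). The 4 neutrophil markers summed to 46 to 785 contralaterally and to 1115 to 15094 ipsilaterally, and *S100a8* and *S100a9* were called higher. Without replicate 2, which held the highest sum of neutrophil markers, *Slc1a3* fell by 1.62 and *Glul* by 1.26. The median of all genes was -0.18 in MG, and after rescaling within MG *Slc1a3* fell by 1.56 and *Glul* by 1.07. What part these shifts had in the 2 calls was not tested.

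The 250 bases upstream of the start of both genes are shown because these were the 2 genes called in a cell type other than AC. They were read from RefSeq sequence of the mouse build GRCm38.p6 on the strand of the gene, 5′ to 3′. *Slc1a3* spans chr15:8634124-8710764 on the minus strand and its window chr15:8710808-8711057. *Glul* spans chr1:153899944-153909723 on the plus strand and its window chr1:153899679-153899928. Capitals mark matches, on either strand, to any of 5 short motifs: the hypoxia response element core ACGTG, the AP-1 site TGANTCA, the Sp1 box GGGCGG, the PU box GAGGAA and the TATA box TATAAA.
Slc1a3: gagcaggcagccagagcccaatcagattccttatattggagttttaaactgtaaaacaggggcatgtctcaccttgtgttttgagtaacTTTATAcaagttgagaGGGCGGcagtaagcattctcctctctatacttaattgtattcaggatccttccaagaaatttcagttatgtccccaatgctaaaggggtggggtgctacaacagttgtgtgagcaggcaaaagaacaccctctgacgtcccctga
Glul: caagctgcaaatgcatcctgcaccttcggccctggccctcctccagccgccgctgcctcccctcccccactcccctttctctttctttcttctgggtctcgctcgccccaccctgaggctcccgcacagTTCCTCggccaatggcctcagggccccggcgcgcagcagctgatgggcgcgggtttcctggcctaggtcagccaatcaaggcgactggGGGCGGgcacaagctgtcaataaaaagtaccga
The window of *Slc1a3* held a TATA box match starting 161 bases and an Sp1 box match starting 145 bases before the start. The window of *Glul* held a PU box match at 121 and an Sp1 box match at 33 bases before it. Windows of this length held an Sp1 box in 32.7%, a PU box in 23.3% and a TATA box in 12.4% of all 32851 promoters. The hypoxia response element core, held by 16.6% of them, was not matched in either window.

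In EC, 0 of the 9 genes were called by limma, where 0.491% of 13242 genes tested were called. Of the 9, 2 (*Gja1* and *Glul*) had an unadjusted p under 0.05, as did 1581 of all genes tested. *Gja1*, the connexin 43 gene, ranged from 932 through a median of 1736 to 2390 normalized counts in contralateral EC and from 2293 through 3682 to 5314 in ipsilateral EC. Only the lowest ipsilateral library lay within the contralateral range, and the ipsilateral library was the higher in 6 of 6 pairs. The log2 difference was 1.22 ± 0.27 (limma adjusted p = 0.0711). With the replicate number as a block 1 of the 9 genes, *Gja1*, was called (adjusted p = 0.0405), where 0.785% of all genes were called, and as a fixed term the block gave an adjusted p of 0.0678.

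*Glul* went the other way in EC. It ranged from 9405 through 10888 to 13534 normalized counts contralaterally and from 5358 through 6716 to 10094 ipsilaterally, and only the ipsilateral library of replicate 1, at 10094, lay within the contralateral range. It was lower in 6 of 6 pairs, with a log2 difference of -0.68 ± 0.19 (limma adjusted p = 0.153). Of the other 7 genes only *Slc1a3* exceeded 10 normalized counts in all 12 EC libraries, and its log2 difference was 0.10 ± 1.09.

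In the EC libraries in which *Gja1* was highest, the other genes apart from *Glul* were at 60 normalized counts or less. In ipsilateral EC replicates 5 and 6 *Gja1* was at 4885 and 5314, while *Slc1a2* was at 6 and 10, *Gjb6* at 1 and 0, *Aqp4* at 15 and 0 and *Kcnj10* at 60 and 24. The 4 MG markers summed to 192 to 7629 in contralateral and 276 to 21121 in ipsilateral EC, the neutrophil markers to 0 to 1460 and 61 to 8625, the PC markers to 103 to 1065 and 68 to 947, and the oligodendrocyte lineage markers to 774 to 9653 and 824 to 18198. In replicates 5 and 6 the ipsilateral sums of MG and neutrophil markers were at most 316 and 129, whereas that of oligodendrocyte lineage markers was highest in replicate 5.

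In PC, 0 of the 9 genes were called by limma, where 1.02% of 13597 genes tested were called. Of the 9, 1 (*Gja1*) had an unadjusted p under 0.05, as did 2098 of all genes tested. *Gja1* ranged from 276 through 803 to 1777 in contralateral PC and from 1199 through 1656 to 2721 in ipsilateral PC, with ranges that overlapped. It was higher in 6 of 6 pairs, and the fitted log2 difference was 1.32 ± 0.42 (limma adjusted p = 0.144). The pair changes were 2.84 and 3.04 in replicates 1 and 4, and 0.24 to 0.95 in the others. The median change over the 9 genes was 0.82 in replicate 1 and 3.32 in replicate 4, with 1 and 0 genes lower. In replicates 2, 3, 5 and 6 this median was -0.30, 0.24, 0.00 and -0.68. The part of such shared shifts in the *Gja1* values was not tested. *Glul* was higher in 5 of 6 pairs (0.28 ± 0.18) and *Gjb6* in 3 of 6 (0.48 ± 0.53, and -0.05 without replicate 4). Ipsilateral PC libraries held MG markers at 267 to 28388 against 249 to 11003 contralaterally and neutrophil markers at 26 to 10540 against 0 to 740, and their part in these values was not tested.

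The connexin promoters are shown because *Gja1* and *Gjb6* had the largest differences between hemispheres in AC and *Gja1* went in opposite directions in AC and in vascular cells. *Gja1* spans chr10:56377330-56390415 on the plus strand and its window chr10:56377050-56377299. *Gjb6* spans chr14:57123303-57133611 on the minus strand and its window chr14:57133612-57133861. Capitals mark matches to the same 5 motifs in GRCm38.p6.
Gja1: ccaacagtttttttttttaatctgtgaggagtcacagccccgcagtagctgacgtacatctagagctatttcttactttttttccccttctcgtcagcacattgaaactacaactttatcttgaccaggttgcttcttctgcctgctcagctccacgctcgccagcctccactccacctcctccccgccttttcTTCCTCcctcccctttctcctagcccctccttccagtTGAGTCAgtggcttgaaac
Gjb6: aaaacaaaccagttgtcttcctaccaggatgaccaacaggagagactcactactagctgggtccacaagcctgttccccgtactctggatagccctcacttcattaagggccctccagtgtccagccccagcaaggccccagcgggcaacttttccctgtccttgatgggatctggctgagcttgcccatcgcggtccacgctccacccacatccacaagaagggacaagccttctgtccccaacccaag
The window of *Gja1* held an AP-1 site match starting 19 bases and a PU box match starting 56 bases before the start. An AP-1 site match was found in 6.75% of all promoters. The window of *Gjb6* held none of the 5 motifs, which says only that these letters are not in its 250 bases.

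**Figure D5:**
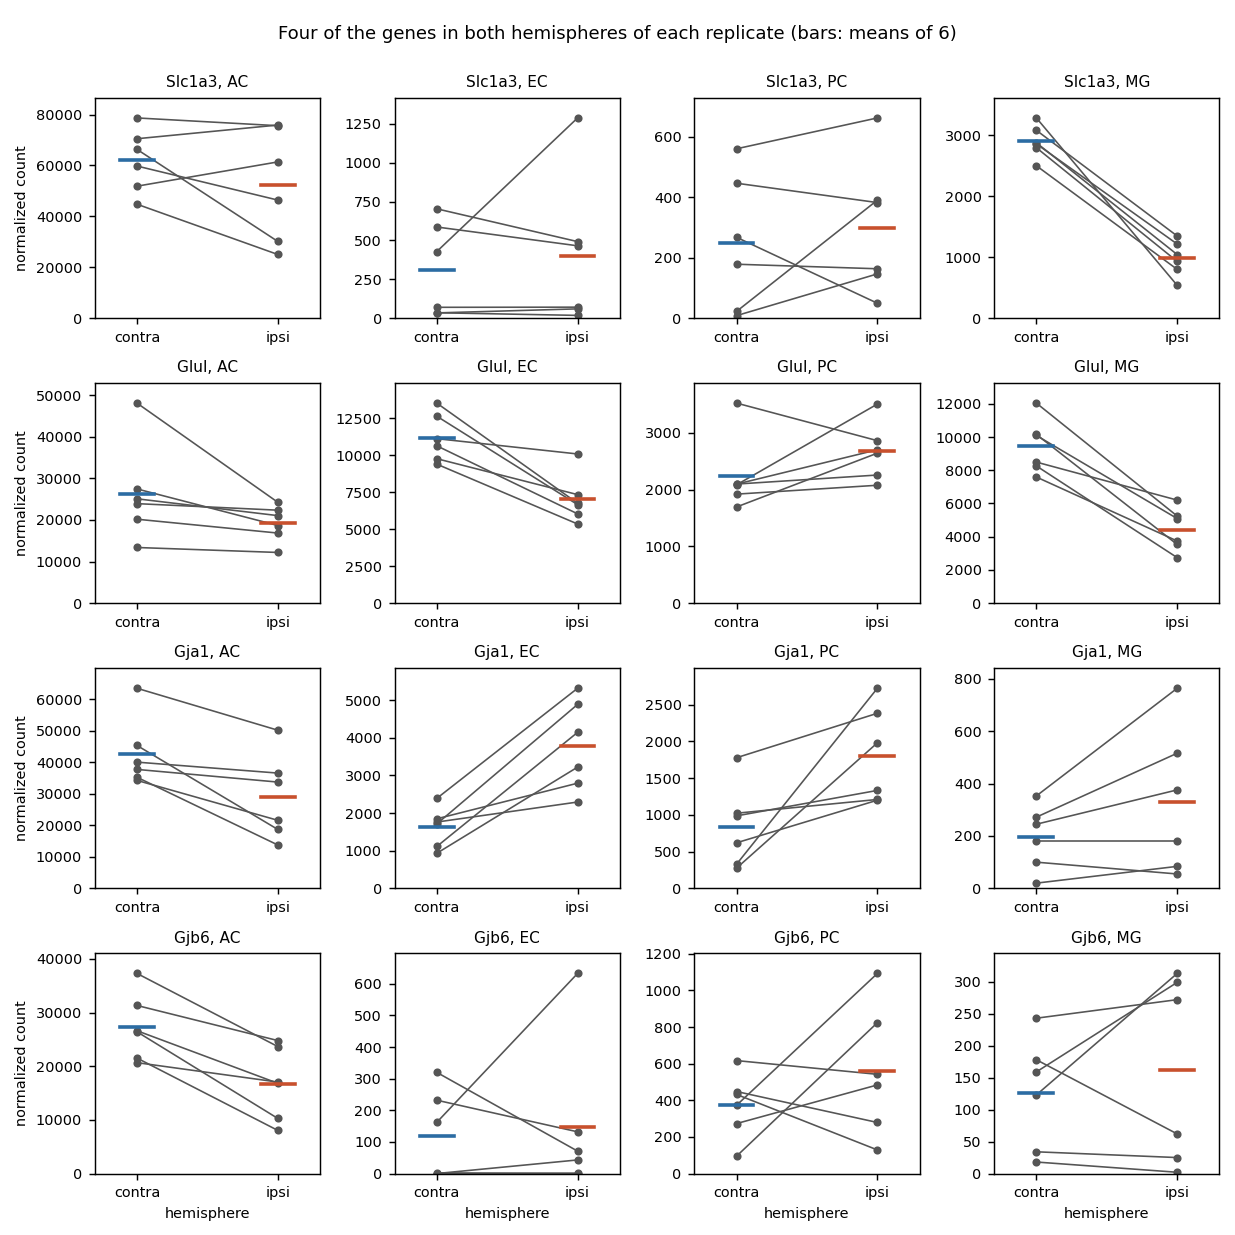
Normalized counts (linear axes from 0) of *Slc1a3*, *Glul*, *Gja1* and *Gjb6* in each cell type, with a line for each of 6 replicates from its contralateral to its ipsilateral library and bars at the means. The lines of *Gja1* go down in AC and up in EC and PC in all replicates, and those of *Slc1a3* and *Glul* go down in all replicates of MG.

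Differences of the stroke effect between AC and the other cell types were tested directly. In the fit of 48 libraries 0 of the 9 genes passed an adjusted p of 0.05 in each comparison, where 0.06% of 15003 genes passed against EC, 0.00667% against PC and 0.293% against MG, and 4 of the 27 tests had an unadjusted p under 0.05. The change of *Gja1* in AC minus that in EC was -1.88 on the log2 scale (limma adjusted p = 0.683), and minus that in PC it was -1.98 (adjusted p = 0.528). In fits of only the 24 libraries of both cell types the adjusted p were 0.127 and 0.318, and with the replicate block 0.0618 and 0.218.

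An exact permutation test of the 6 pair changes in each cell type, two-sided, gave p = 0.00216 for *Gja1* against EC and against PC and for *Slc1a3* against MG, the smallest that 924 regroupings allow. These regroupings treat the changes in the cell types as independent, although those of a replicate number were taken to come from the same mice. Within replicates, an exact sign-flip permutation test of the 6 differences gave p = 0.0312 for each of these, the smallest that 64 sign patterns allow. For *Slc1a3* the change in AC was above that in MG by 1.28 (limma adjusted p = 0.85 in 48 and 0.129 in 24 libraries). Of the 27 exact tests, 7 had an unadjusted p under 0.05 by regrouping and 4 within replicates, and since the comparisons share the AC libraries they are not independent of each other.

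Related genes were followed in 6 lists: 9 genes of the endfoot scaffold and volume regulation, 6 of ion pumps and channels, 7 of neurotransmitter handling, 4 other SLC1 transporters, 7 other connexins and 18 other genes of astrocyte identity. In AC none of the tested members of these lists was called without the replicate block or with it as a correlation. Of them 7 had an unadjusted p under 0.05, as did 1416 of all 15264 genes tested. With the replicate as a fixed term 3 were called, as were 242 of all 15264 genes tested. They are named here after their values were seen: *Cldn10* (-0.91 ± 0.19 on the log2 scale), *Slc6a9* (-0.73 ± 0.15) and *Slc1a5* (0.67 ± 0.14), with limma adjusted p of 0.0421, 0.0463 and 0.0471. The 18 identity genes, which include *Aldoc* and *Slc7a10*, were all below 0 in AC, also after rescaling, at -0.91 to -0.27 on the log2 scale with a median of -0.54. The 9 scaffold genes lay between -0.74 and -0.33 with a median of -0.40, and the 7 genes of neurotransmitter handling between -0.73 and -0.28 with a median of -0.44. The other connexins, at a median of 0.00, and the 3 other SLC1 transporters tested, at 0.46, did not share this direction.

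In MG the genes of these lists that were called were all lower, and among them were *Trpv4* and *Apoe*. *Trpv4*, a calcium-permeable channel that responds to cell swelling, was at 481 ± 133 normalized counts contralaterally and 132 ± 95.2 ipsilaterally (SD, n = 6). It fell by 2.56 on the log2 scale (SE 0.78, limma adjusted p = 0.0462). Its lowest ipsilateral library was at 3 normalized counts, and its pair changes ran from -7.09 to -1.01. Without replicate 2 the log2 difference of *Trpv4* was -1.65. *Apoe*, the apolipoprotein, was at 23435 ± 3533 and 14742 ± 3849 and fell by 0.69 (SE 0.20, adjusted p = 0.0349 by limma). Both calls were narrow: leaving out any 1 replicate except replicate 2 ended them, with adjusted p of up to 0.122 for *Trpv4* and 0.148 for *Apoe*. In EC none of the list genes was called. In PC none was called without the block and 1 with it, as were 288 of all 13597 genes tested. That gene was *Dtna*, an endfoot scaffold gene that was lower in 6 of 6 pairs and is named after its values were seen.

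The 9 genes varied together over the 12 AC libraries, with the mean of each hemisphere subtracted, but not as a single group. Pearson's r between pairs of genes ranged from -0.19 to 0.96 with a median of 0.75, given as a description since the libraries share depth and the content of other RNA. *Slc1a3* and *Gjb6* were closest, at 0.96, and *Aldh1l1* correlated with *Gjb6* at 0.95 and *Aqp4* with *Gja1* at 0.93. *Glul* and *Kcnj10* correlated with each other at 0.76, but with *Aqp4* at -0.19 and -0.11 and with *Gja1* at 0.03 and 0.04.

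Across the table, the genes whose pattern was most like that of the 9 over the 48 libraries were *Ttyh1*, *Ntrk2*, *Aldoc*, *Mt3* and *Cspg5*, with mean Pearson's r of 0.865, 0.859, 0.858, 0.856 and 0.854. Over the 12 AC libraries they were *Tlcd1* (mean r 0.79), *Slc7a10* (0.781), *Cap2* (0.78), *Abhd6* (0.778) and *Bcan* (0.778). Only *Aldoc* and *Slc7a10* of these 10 were in the lists above.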

How the data were processed

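RNA of 48 libraries of sorted cells was analysed. The authors trimmed reads with Trimmomatic 0.38, aligned them with STAR 2.6.1d to GRCm38, counted them with featureCounts 1.6.3 and normalized the counts with DESeq2 1.18.1. The deposited values are those normalized counts, rounded, and were treated as a score and not as raw counts, so no count test was run. For 12 libraries whose titles and columns conflict, the columns were used.

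In each cell type the 2 hemispheres were compared with limma 3.58.1 in R 4.3.3 (trend) on log2(normalized count + 1), which understates changes of low genes, where the mean was 10 or more, two-sided, with Benjamini-Hochberg adjustment over all genes tested. Levels and differences between cell types used a fit of 48 libraries. Both kinds of fit were run on simulated data without pairing of replicates. For the fit of 48 libraries these had the same spread in all groups. The simulations therefore cannot show how the fits behave where pools are paired or spreads differ between cell types. Both hemispheres of a replicate number were taken to come from the same mice. Their deviations correlated at 0.23 in EC and PC, 0.38 in AC and 0.14 in MG on average, against -0.08 to -0.03 between numbers. By replicate number these correlations ranged from 0.01 to 0.55 in EC and from -0.07 to 0.42 in PC. In AC they ranged from 0.02 to 0.66 and in MG from -0.03 to 0.35. Pairing across cell types was not checked. The main fit had no block. Exon lengths came from GENCODE, promoters from RefSeq for 8 of the 9 genes. Plots were made with matplotlib 3.10.9.

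The 9 genes and all lists were chosen with earlier results of these data known. From the lists, genes called in AC or MG are named, apart from 2 that are not reported here, with *Gfap* and the 5 genes of most like pattern. Alternatives were other pseudocounts and filters, the replicate block, joint fits, rescaling, no fold limit, replicates left out and the titles' cell types.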

Additional observations from a re-analysis of the deposited data

Results flagged for a closer look

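In 11 of the 72 groups of 6 libraries (15.3%), 1 library lay far above the other 5. The limit used is passed in about 1 in 20 groups of normally distributed values. Counts at or near 0 are not so distributed, so that rate is not their chance rate. None of the 11 groups was of AC or MG, and in all but those of *Glul* and *Slc1a3* the gene was at 10 normalized counts or less in some library of the same cell type. In ipsilateral EC the library was replicate 1 for 5 genes: *Aqp4* at 450 normalized counts against 0 to 98 in the others, *Slc1a2* at 1277 against 6 to 304, *Slc1a3* at 1288 against 17 to 492, *Gjb6* at 633 against 0 to 132 and *Aldh1l1* at 192 against 0 to 50. In contralateral EC it was replicate 2, with *Kcnj10* at 108 against 0 to 34 and *Slc4a4* at 188 against 0 to 32. In ipsilateral PC it was replicate 1 for *Aqp4* at 200 against 0 to 73, replicate 2 for *Kcnj10* at 116 against 0 to 32 and replicate 4 for *Slc4a4* at 211 against 0 to 79. In contralateral PC it was replicate 2 for *Glul*, at 3522 against 1694 to 2097.

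The change of *Gja1* had opposite signs in every pair of AC and of EC and PC, with log2 differences of -1.88 between AC and EC and -1.98 between AC and PC. The differences were tested, with limma adjusted p of 0.683 and 0.528 in the fit of 48 libraries and exact permutation p of 0.00216 each, the smallest that 924 regroupings allow. Within replicates, since the cell types of a replicate number were taken to come from the same mice, the exact sign-flip permutation p was 0.0312 each. This is the smallest that 6 replicates allow. Opposite signs in every pair give these smallest exact p in any case, so the p add nothing to the signs.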

How the results depend on the processing

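Of 451 alternative values over 28 results, 427 kept their direction and their side of the threshold. The count of genes called was 0 of 9 in AC under every alternative run. It was 1 in EC with the replicate block, 1 in MG in the joint fit of 48 libraries, where *Slc1a3* was no longer called, and with the cell types of the sample titles 2 in PC and 5 in MG. With those titles 2 genes differed between AC and PC and 3 between AC and MG. The titles also reversed *Gja1* in PC to -1.60 and *Gjb6* to -2.20, and brought *Glul* in PC, *Kcnj10* in MG and *Gja1* in MG past the threshold. The block, with replicate numbers taken as the same mice, changed no other call of the 9 genes than that of *Gja1* in EC.

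The other reversals were these: *Aqp4* in AC, 0.00 after rescaling and -0.14 to 0.10 with a replicate left out, *Slc1a3* in EC, -0.19 to 0.32 with a replicate left out, *Gjb6* in PC, -0.05 to 0.92 likewise, and *Aqp4* in MG, 0.03 with a pseudocount of 10, 0.05 after rescaling, 0.53 in replicates 1 to 4, and -0.40 to 0.36 with a replicate left out. The cause was not tested, apart from the larger shared SE in the joint fit. Over all genes, the number called was 52 in AC, 217 with the block, 242 with it as a fixed term, 112 in the joint fit and 12 to 61 with a replicate left out. It was 65 in EC and 10 to 262 over the alternatives, 139 in PC and 11 to 312, and 1404 in MG and 557 to 1909, apart from the titles, which gave 6219 in PC and 6179 in MG. The block as a fixed term and the fits of 24 libraries were chosen after seeing the data. Levels near the floor of 2.01 to 7.08 normalized counts limit what can be said of the genes outside AC.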
